A study of Oryza sativa with 4 samples.

Results

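AMY3D, HXK6 and OsTPP1 are rice genes for starch breakdown and sugar sensing. They were taken by symbol or synonym, which gave 4 genes with 5 probe sets out of 17905 genes with a probe set of their own. There were more genes than names because 2 hexokinase genes carry HXK6 as a synonym. AMY3D is LOC4345814 on chromosome 8, with 2 probe sets, and OsTPP1 is LOC4330221 on chromosome 2, with 1 probe set. The hexokinase genes are LOC4338010 on chromosome 5, listed as HXK6 and HXK7, and LOC4326547 on chromosome 1, listed as HXK2 and HXK6, with 1 probe set each. They are called HXK6/HXK7 and HXK2/HXK6 here, since the annotation used does not settle which of them the name stands for. In the numbering common for the rice hexokinase family, HXK6 may be the chromosome 1 gene and HXK7 the chromosome 5 gene. Names and chromosomes are those of the RefSeq assembly ASM3414082v1.

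The arrays measured shoots of rice (Oryza sativa) seedlings, 18 days old when they were put completely under water in a greenhouse. The genotypes were M202(Sub1), a line of the cultivar M202 with the introgressed Sub1 submergence tolerance locus, and M202 itself, and shoots were taken after 6 days or 1 day of submergence. All 4 groups, M202(Sub1) at 6 days, M202(Sub1) at 1 day, M202 at 6 days and M202 at 1 day, were submerged, and each was 1 Affymetrix array. No unsubmerged plants were compared. No difference below has a replicate check, and no p-value was computed. The 6-day plants were also older when sampled, and age or the hour of sampling cannot be told apart from the length of submergence. Nor can any other donor segment in the introgression line be told apart from Sub1. In whole shoots, fewer cells of a type and less RNA per cell cannot be told apart either.

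Submerged shoots photosynthesise little and live on stored carbohydrate. Alpha-amylases cut starch into sugars, hexokinases phosphorylate the hexoses and some of them also act as glucose sensors, and trehalose 6-phosphate is a signal of sucrose supply that restrains the kinase SnRK1, which acts when sugar or energy is short. In rice, AMY3D is the alpha-amylase best known for being switched on by sugar starvation, through SnRK1A and the transcription factor MYBS1. Trehalose 6-phosphate phosphatases, the family of OsTPP1, turn trehalose 6-phosphate into trehalose.

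The genes had been selected on values of the same arrays, AMY3D and HXK6 for their differences between 6 days and 1 day and OsTPP1 for its difference between genotypes at 6 days. Their values are therefore a description. Values are log2 expression, so a difference of 1 is 2-fold, and the differences are 6 days minus 1 day or M202(Sub1) minus M202. Genes were counted if at least 1 array reached the floor, the 50th percentile of all rice probe set values (5.51), which 15426 genes did. Values under the floor were treated as near background, although no background level was measured. All 4 matched genes reached it, although AMY3D did so on only 2 arrays and with only 1 of its probe sets.

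The medians of the arrays lay between 5.48 and 5.54, which the normalization to a common distribution brings about. Green shoots are marked by genes for chlorophyll a/b-binding proteins and the Rubisco small subunit. Of 5 such genes, 4 stood above 12 on every array by their brightest probe set. RBCS1 was under the floor on every array. Other sets of OsrbcS were dimmer, and a set at 3.79 to 4.34 was under the floor on every array. RCABP69, a chlorophyll a/b-binding protein gene, was lower with time. It stood at 12.21 in M202(Sub1) at 6 days against 13.40 at 1 day. In M202 it stood at 12.28 at 6 days against 13.58 at 1 day. The brightest sets of CAB2R, LHCP and OsrbcS were also lower at 6 days in both genotypes, by less than 2-fold. The dimmer CAB2R set stood at 13.18 and 13.94 in M202(Sub1) at 6 days and 1 day, and at 12.91 and 13.96 in M202. The signal from the 3' end of the actin control exceeded that from its 5' end by 2.52 and 2.31 in M202(Sub1) at 6 days and 1 day, and by 2.36 and 2.26 in M202. This gap, a measure of RNA and labelling quality, was thus a little wider at 6 days in both genotypes and widest on the M202(Sub1) 6-day array. The same gap for the GAPDH control was 0.81 and 0.60 in M202(Sub1) at 6 days and 1 day, and 0.79 and 0.68 in M202. The 18S ribosomal RNA control was at 8.16 and 8.84 in M202(Sub1) at 6 days and 1 day, and at 8.58 and 9.69 in M202, lower at 6 days in both genotypes. The part of these measures in the differences below was not tested.

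**Figure D1:**
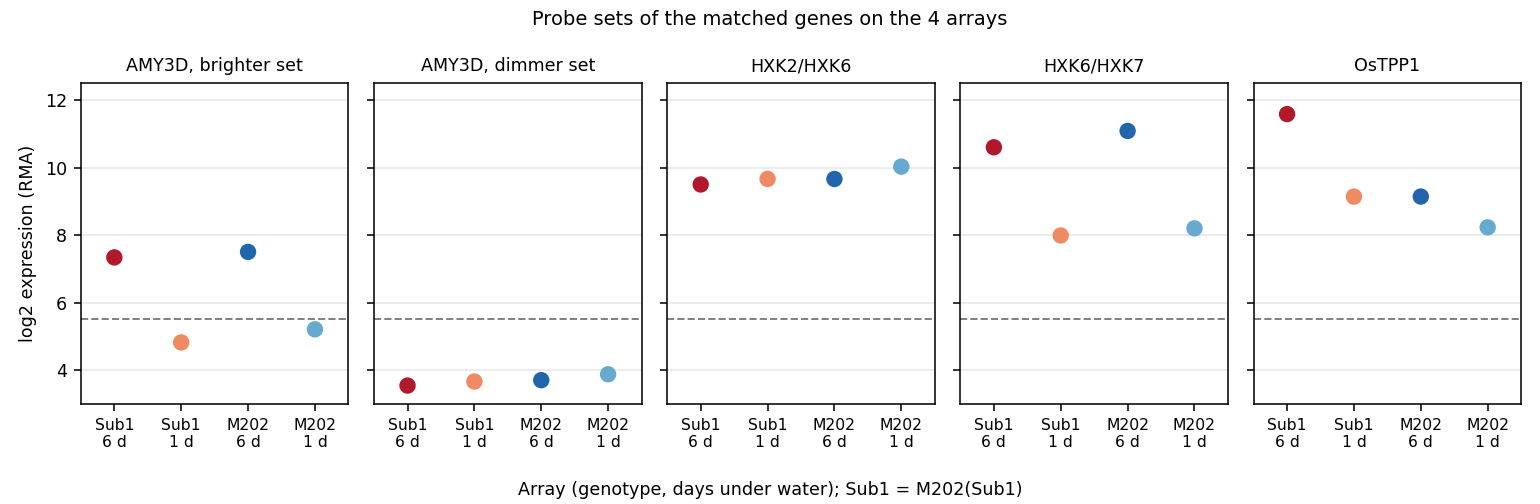
Log2 expression (vertical axis) of the 5 probe sets of the matched genes on the 4 arrays (horizontal axis, 1 point per array), with the floor of 5.51 as a dashed line. The brighter AMY3D set and HXK6/HXK7 are high on both 6-day arrays, OsTPP1 is highest in M202(Sub1) at 6 days, and HXK2/HXK6 and the dimmer AMY3D set are nearly level.

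AMY3D was higher after 6 days under water than after 1 day in both genotypes. Its brighter probe set, whose name marks it as matching several transcripts of 1 gene, stood at 7.34 in M202(Sub1) at 6 days against 4.83 at 1 day. In M202 it stood at 7.50 at 6 days against 5.21 at 1 day. Both 6-day values were above the floor and both 1-day values were under it. The differences were 2.51 in M202(Sub1) and 2.29 in M202, or 5.72-fold and 4.89-fold. Since the 1-day values are under the floor, these sizes are uncertain. With the 1-day values raised to the floor the differences were 1.83 and 1.99.

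The other AMY3D probe set did not show this. It stood at 3.55 in M202(Sub1) at 6 days against 3.67 at 1 day, and at 3.71 in M202 at 6 days against 3.88 at 1 day, under the floor on all 4 arrays. Its time differences were -0.12 in M202(Sub1) and -0.17 in M202, opposite in sign to those of the brighter set. The sets were 3.79 apart on each 6-day array, and 1.16 and 1.33 apart on the M202(Sub1) and M202 arrays at 1 day. Averaging the sets gave time differences of 1.20 in M202(Sub1) and 1.06 in M202, still past 2-fold but far below those of the brighter set alone.

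Such disagreement was not the rule on these arrays. Of the 296 genes with several probe sets that were 2-fold apart with time in M202(Sub1), 14.9% had a set of the other sign, and in M202 17.3% of 404 did. No sequence of either AMY3D set was compared here, so which transcripts the dimmer set reports was not examined.

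The genotypes had close AMY3D values at each time. The brighter set was -0.39 apart at 1 day, with both values under the floor, and -0.16 apart at 6 days, lower in M202(Sub1) both times. The dimmer set was lower in M202(Sub1) as well, by -0.21 at 1 day and -0.16 at 6 days. None of these values reached 1.5-fold. In M202(Sub1) and M202 at 6 days, AMY3D lay at percentiles 68.1 and 69.8 of the rice probe sets of its array, a middling signal, where it had been at percentiles 39.9 and 45.7 at 1 day.

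The hexokinase genes that share the name HXK6 differed from each other. HXK6/HXK7 stood at 10.60 in M202(Sub1) at 6 days against 7.99 at 1 day, and at 11.08 in M202 at 6 days against 8.20 at 1 day. It was thus well above the floor on all 4 arrays. Its time differences were 2.61 in M202(Sub1) and 2.88 in M202, or 6.10-fold and 7.37-fold. Its signal was at percentile 95 of its array in M202 at 6 days and at percentile 75 at 1 day.

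HXK2/HXK6 stood at 9.50 in M202(Sub1) at 6 days against 9.66 at 1 day, and at 9.66 in M202 at 6 days against 10.03 at 1 day. Its time differences were -0.16 and -0.37, small and below 0 in both genotypes. Its probe set carries the suffix that marks probes shared by several genes, so its signal may include other genes. A statement that HXK6 was higher at 6 days therefore holds for the probe set of LOC4338010 and not for that of LOC4326547. The shared signal does not settle the level of LOC4326547 alone. The overlap of names is wider than this pair. The annotation gives 10 HXK names to 10 hexokinase genes, and 7 of the names are given to more than 1 gene.

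Genotype differences of both hexokinase genes were small and below 0. HXK6/HXK7 was -0.21 apart at 1 day and -0.48 apart at 6 days, and HXK2/HXK6 was -0.36 apart at 1 day and -0.16 apart at 6 days. As with AMY3D, each was the lower one in M202(Sub1) at both times, and none came to 1.5-fold.

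OsTPP1 had a different pattern, higher at 6 days in both genotypes and higher in M202(Sub1) at both times. It stood at 11.58 in M202(Sub1) at 6 days against 9.14 at 1 day, and at 9.14 in M202 at 6 days against 8.23 at 1 day. The M202(Sub1) 6-day array was far above the others, the M202(Sub1) 1-day and M202 6-day arrays were level, and the M202 1-day array was lowest. With 1 array per group the order of neighbouring levels has no spread to be set against. M202(Sub1) exceeded M202 by 2.44 at 6 days (5.42-fold) and by 0.91 at 1 day (1.88-fold).

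The time difference of OsTPP1 was 2.44 in M202(Sub1) and 0.91 in M202. The time difference in M202(Sub1) was thus higher by 1.53 (2.89-fold), which was not tested. Both the 6-day genotype difference and the time difference in M202(Sub1) rest on the same high array, the one with the widest actin gap. For comparison, the time differences of the genotypes were 0.22 apart for AMY3D, 0.20 for HXK2/HXK6 and -0.27 for HXK6/HXK7.

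**Figure D2:**
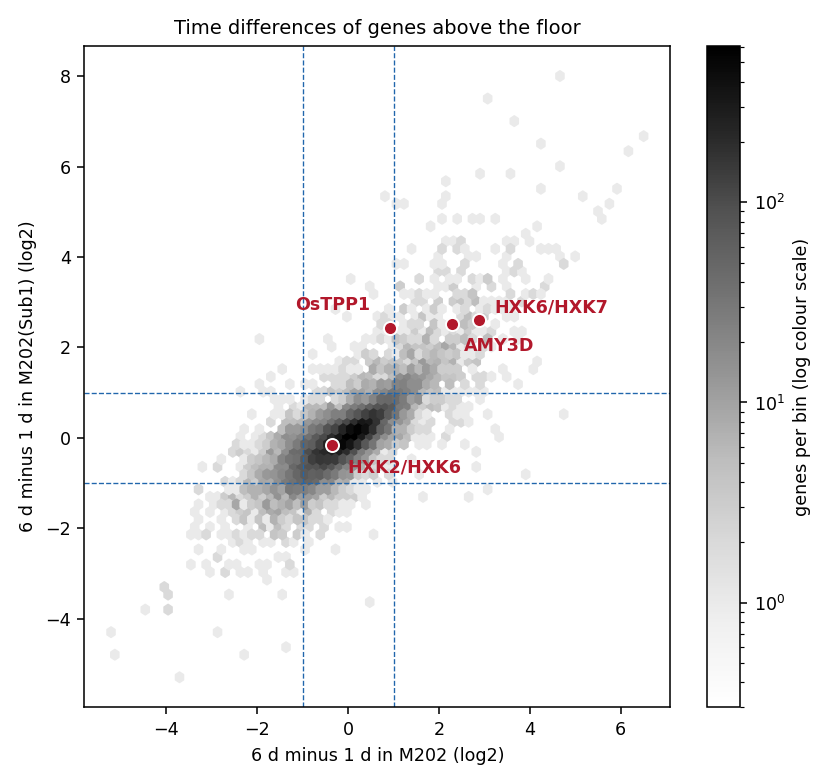
Time differences of the 15426 genes above the floor, 6 days minus 1 day in log2 units, in M202 (horizontal axis) and M202(Sub1) (vertical axis), with shading for the number of genes and dashed lines at 2-fold. AMY3D (2.29 and 2.51) and HXK6/HXK7 (2.88 and 2.61) lie at the upper right, OsTPP1 (0.91 and 2.44) lies at the upper edge of the cloud, and HXK2/HXK6 (-0.37 and -0.16) lies within it.

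The shares of all genes are given beside the counts of matched genes as background, and nothing is read from them, since the genes were selected on these arrays. In M202(Sub1), 3 of the 4 passed 2-fold upward at 6 days, as did 6.25% of all genes, and none was 2-fold lower (4.61% of all genes). In M202, 2 of the 4 were at least 2-fold higher, AMY3D and HXK6/HXK7, against 7.44% of all genes, and none was lower (8.62%). At 6 days 1 of the 4, OsTPP1, exceeded its M202 level by 2-fold or more in M202(Sub1), against 3.85% of all genes, and none was lower (2.18%). At 1 day none was 2-fold higher (0.778% of all genes) or lower (1.01%). Set against M202, the time difference in M202(Sub1) was higher by 2-fold or more for OsTPP1 alone of the 4 and for 4.2% of all genes, and it was 2-fold lower for none of the 4 (1.59%).

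In rank, 40 of the 15426 genes had a higher 6-day genotype difference than OsTPP1, and 139 had a higher one at 1 day. For the time difference in M202(Sub1), 196 genes exceeded HXK6/HXK7, 214 exceeded AMY3D and 226 exceeded OsTPP1. In M202, 110 exceeded HXK6/HXK7, 252 exceeded AMY3D and 1316 exceeded OsTPP1. In M202, OsTPP1 thus stood apart from AMY3D and HXK6/HXK7. The rank of AMY3D is uncertain, since its 1-day values were under the floor. Being 2-fold higher at 6 days in both genotypes, as AMY3D and HXK6/HXK7 were, was shared by 745 genes.

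Other genes of the starch and sugar pathway were described from lists, which do not cover all of it. Of 33 other genes in 6 lists, written with earlier results of these arrays known, 26 were above the floor. At 6 days against 1 day, M202(Sub1) had 2 of the 26 higher by 2-fold or more and 1 lower, and M202 had none higher and 1 lower. These shares, 7.69% and 3.85% in M202(Sub1) and 0% and 3.85% in M202, were near or under those of all genes given above. The median time difference of the 26 was 0.10 in M202(Sub1) and -0.18 in M202, where all genes had medians of 0.01 and -0.02. Between genotypes, 1 of the 26 was 2-fold higher in M202(Sub1) at 6 days and none at 1 day, and none was 2-fold lower at either time. The 1 gene at 6 days is 3.85% of the 26, the same share as among all genes.

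**Figure D3:**
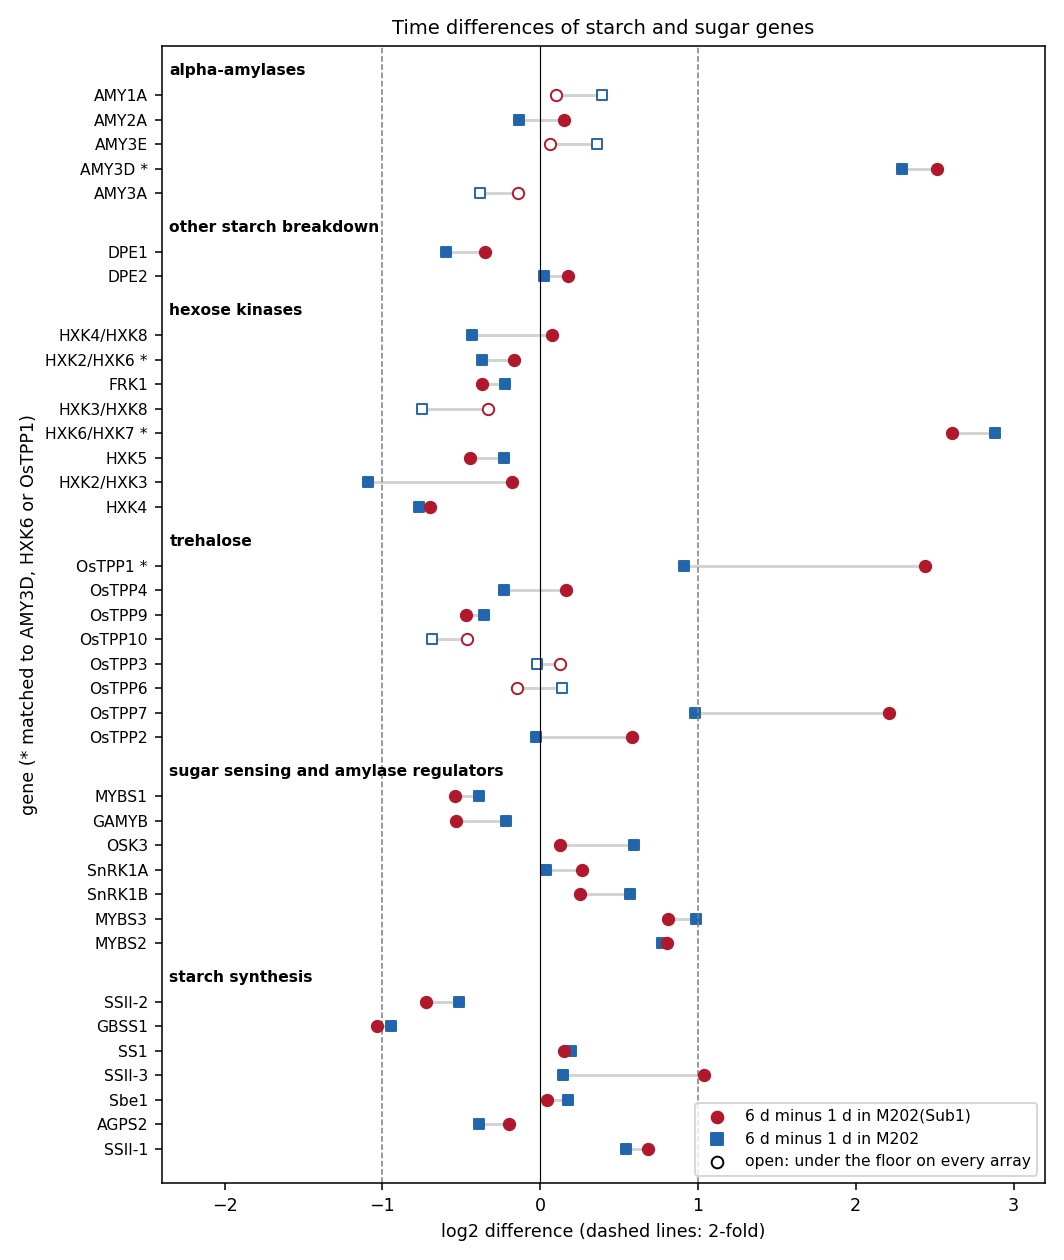
Time differences (horizontal axis, log2, 6 days minus 1 day) of the 37 genes of 6 starch and sugar lists in M202(Sub1) (red circles) and M202 (blue squares), with open symbols for genes under the floor on every array and dashed lines at 2-fold. Outside the matched genes, which have an asterisk, OsTPP7 (2.21 and 0.98) lies farthest to the right and HXK2/HXK3 (-0.18 and -1.09) farthest to the left in M202.

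Among the other alpha-amylases, AMY2A was the only gene above the floor. It stood at 8.12 in M202(Sub1) at 6 days against 7.97 at 1 day, and at 8.58 in M202 at 6 days against 8.72 at 1 day. Its time differences of 0.15 and -0.14 had opposite signs and were small. AMY1A, AMY3A and AMY3E were under the floor on every array, with values from 2.55 to 4.30. AMY3E is next to AMY3D on chromosome 8, with no annotated gene between them, and it stood at 4.26 and 4.20 in M202(Sub1) and at 4.30 and 3.94 in M202 at 6 days and 1 day. Of the 5 alpha-amylase genes with a probe set, AMY3D, selected for its time difference, was 2-fold apart with time. Of all genes, 6.25% were 2-fold higher and 4.61% lower with time in M202(Sub1), and 7.44% and 8.62% in M202. As only 1 other alpha-amylase was above the floor, nothing is read from this about the family. The list of other starch breakdown genes matched only 3 genes, of which DPE1 and DPE2 had a probe set. They encode enzymes that rework the maltose and short glucans freed from starch. Their time differences lay between -0.60 and 0.18. Starch breakdown beyond these genes and the alpha-amylases was thus not covered.

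No other hexose kinase was higher at 6 days by 2-fold. Of all genes, 6.25% were in M202(Sub1) and 7.44% in M202, so for so few genes none is near that share. HXK6/HXK7 itself had been selected for its time difference. Of 5 above the floor besides the HXK6 pair, 1 was above 0 with time in M202(Sub1) and none in M202, with medians of -0.37 and -0.43. HXK2/HXK3 (LOC4339420) was the gene 2-fold lower at 6 days in M202, at 6.58 against 7.67 at 1 day, a difference of -1.09. In M202(Sub1) it stood at 7.34 at 6 days against 7.51 at 1 day. Its second probe set had the same signs, with time differences of -0.24 in M202(Sub1) and -1.36 in M202. The fructokinase gene FRK1 and the hexokinase genes HXK4 (LOC4342654) and HXK5 (LOC4339361) were lower at 6 days by less than 2-fold in both genotypes.

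Among the other trehalose phosphatases, OsTPP7 showed the largest time difference. In rice OsTPP7 is known as a gene for germination under water. Its brighter probe set stood at 12.35 in M202(Sub1) at 6 days against 10.14 at 1 day, and at 11.50 in M202 at 6 days against 10.52 at 1 day. The time differences were 2.21 in M202(Sub1) and 0.98 in M202.

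Like OsTPP1, OsTPP7 had its highest value on the M202(Sub1) 6-day array, where it was higher than in M202 by 0.85. At 1 day it was the other way, with a genotype difference of -0.38, where OsTPP1 had 0.91. The brighter OsTPP7 set carries the suffix for probes shared by several genes. The dimmer set, under the floor on all 4 arrays, had a genotype difference of 0.17 at 1 day, opposite in sign, and time differences of 0.75 in M202(Sub1) and 0.69 in M202. Thus the 1.23 by which the time difference was higher in M202(Sub1) came to 0.06 in that set. OsTPP2, OsTPP4 and OsTPP9 were above the floor and under 2-fold in each comparison, with time differences from -0.47 to 0.58, and OsTPP3, OsTPP6 and OsTPP10 were under the floor on every array.

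**Figure D4:**
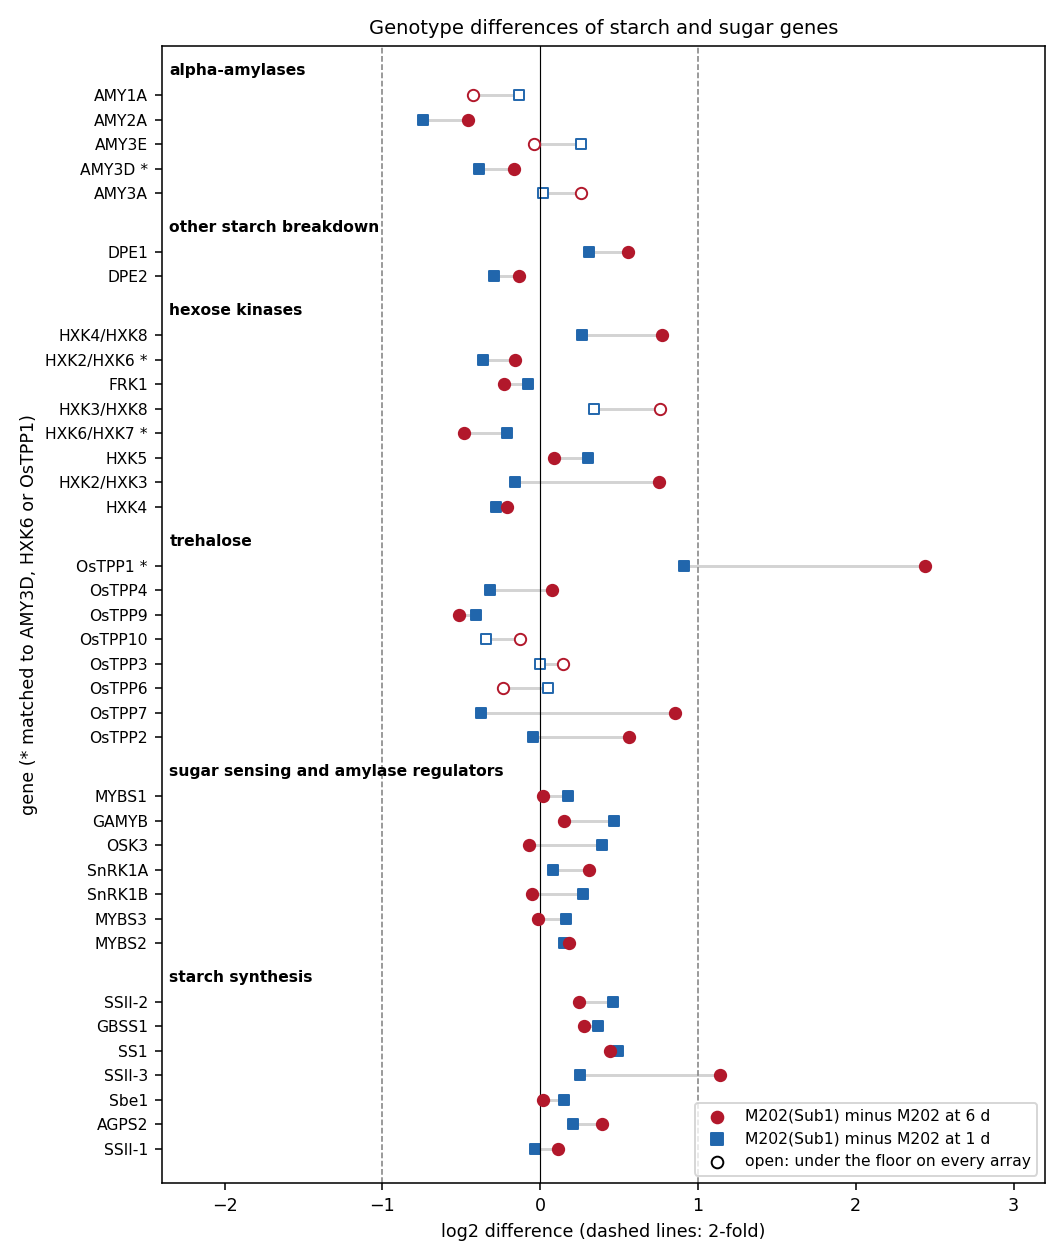
Genotype differences (horizontal axis, log2, M202(Sub1) minus M202) of the same 37 genes at 6 days (red circles) and 1 day (blue squares), with open symbols for genes under the floor on every array and dashed lines at 2-fold. OsTPP1 (2.44 and 0.91) lies farthest to the right, followed at 6 days by SSII-3 (1.14), and no gene lies beyond the left line.

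None of the 7 sugar sensing genes and amylase regulators was 2-fold apart in any comparison by its brightest probe set. Of all genes, 6.25% were 2-fold higher and 4.61% lower with time in M202(Sub1), and 7.44% and 8.62% in M202. Between genotypes these shares lay from 0.778% to 3.85%. For 7 genes, none is near such shares, and nothing is read from it. SnRK1A, the kinase subunit that acts upstream of AMY3D, stood at 10.96 in M202(Sub1) at 6 days against 10.70 at 1 day, and at 10.65 in M202 at 6 days against 10.62 at 1 day. MYBS1, the activator of AMY3D, was lower at 6 days by less than 2-fold, with differences of -0.54 in M202(Sub1) and -0.39 in M202. MYBS2, which in rice represses alpha-amylase genes, had differences of 0.80 and 0.77. MYBS3, a repressor of the same family, had 0.81 and 0.99, and its second probe set, also above the floor, had 0.03 and 0.15. The 3 MYBS2 sets differed in sign, and the set with a time difference of -1.29 in M202(Sub1) lay under the floor there at 6 days. SnRK1B and its near relative OSK3, whose brightest sets carry suffixes for shared or similar probes, had time differences of 0.25 and 0.13 in M202(Sub1) and of 0.57 and 0.59 in M202. GAMYB, the gibberellin-responsive activator of amylase genes, was at -0.54 and -0.22.

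The starch synthesis genes held the other genes that reached 2-fold. SSII-3, a soluble starch synthase, stood at 7.21 in M202(Sub1) at 6 days against 6.17 at 1 day, and at 6.07 in M202 at 6 days against 5.92 at 1 day. Only the M202(Sub1) 6-day array was high, giving a time difference of 1.03 in M202(Sub1) and a genotype difference of 1.14 at 6 days. OsTPP1 was also highest on that array, but its other arrays were less level, from 8.23 to 9.14. Its second set was under the floor on every array, with a genotype difference of 0.00 at 6 days. GBSS1, the Waxy gene for amylose synthesis, was lower at 6 days by -1.03 in M202(Sub1) and -0.95 in M202 in its brightest set. Its 6 sets were all lower in M202(Sub1), from -0.13 to -1.03, and in M202 they ranged from -0.95 to 0.11. The soluble starch synthases SS1, SSII-1 and SSII-2, the branching enzyme Sbe1 and AGPS2, a subunit of the first committed enzyme of starch synthesis, were under 2-fold in each comparison.

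Genes with a similar pattern were sought among 2195 other genes that carry a name, by the distance between their 4 values after each gene was centred on its own mean. AMY3D and HXK6/HXK7 were 0.43 log2 units apart by this measure, and AMY3D and OsTPP1 were 2.18 apart. AMY3D and HXK6 had both been selected for high time differences on these arrays, which favours closeness, so it is no separate result. Both 1-day values of AMY3D were also under the floor. OsTPP1 and OsTPP7 were 1.45 apart. The median distance of a named gene was 2.46 from AMY3D, 2.80 from HXK6/HXK7, 2.53 from OsTPP1 and 0.61 from HXK2/HXK6. The last is small because most genes, like HXK2/HXK6, differed little between the arrays.

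**Figure D5:**
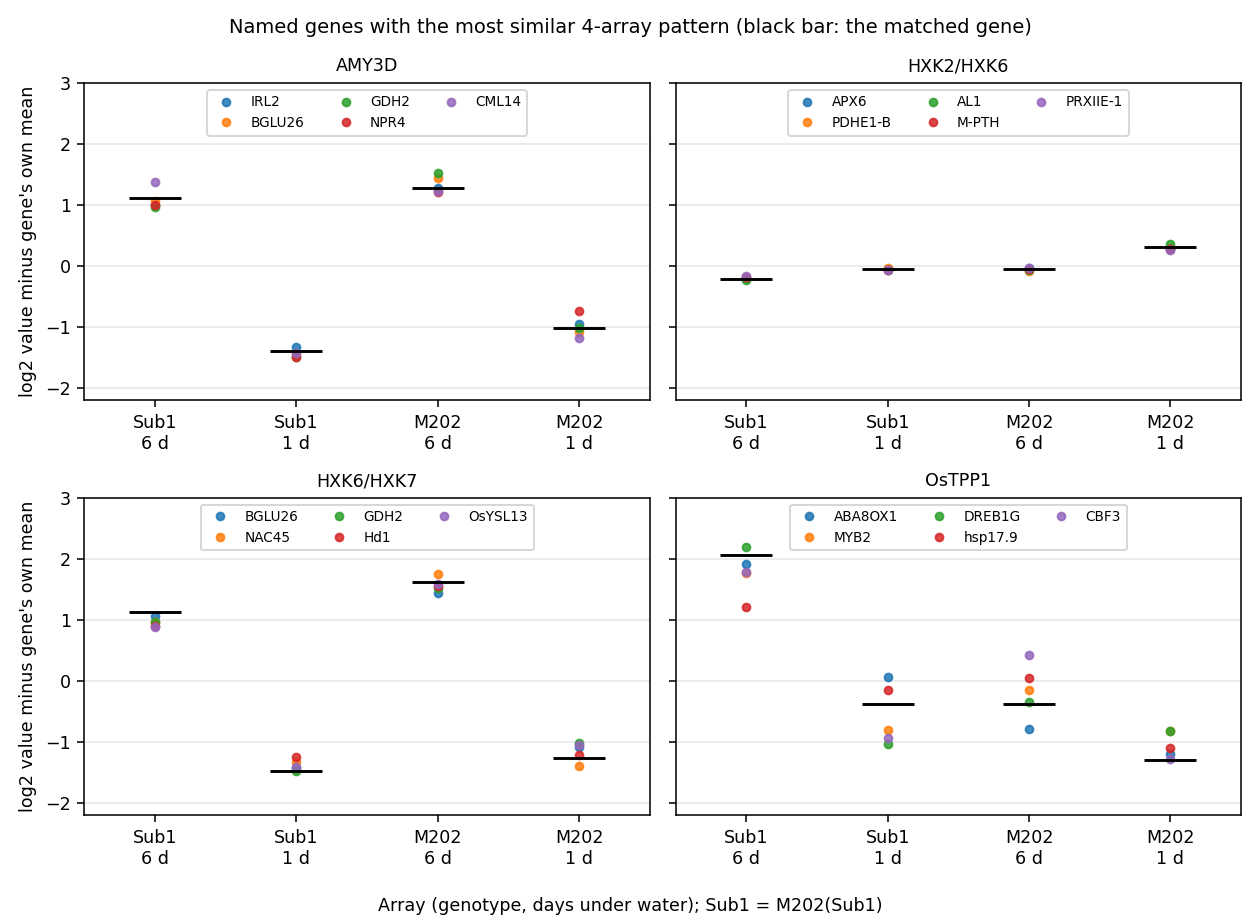
Log2 values minus each gene's own mean (vertical axis) on the 4 arrays (horizontal axis) for each matched gene (black bars) and the 5 named genes closest to it (coloured points). The points lie near the bars for AMY3D, HXK6/HXK7 and HXK2/HXK6, and spread more widely for OsTPP1, whose closest gene was 0.63 away.

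The genes closest to AMY3D were IRL2 (distance 0.15), the beta-glucosidase gene BGLU26 (0.18), the glutamate dehydrogenase gene GDH2 (0.30), NPR4 (0.31) and the calmodulin-like gene CML14 (0.31). BGLU26 (0.27) and GDH2 (0.31) were also among the 5 closest to HXK6/HXK7, with the transcription factor gene NAC45 (0.29), the flowering time regulator Hd1 (0.34) and the metal transporter gene OsYSL13 (0.34). GDH2, which links amino acid breakdown to carbon supply, was compared by the brightest of its 3 probe sets alone. That set stood at 11.90 in M202(Sub1) at 6 days against 9.45 at 1 day. In M202 it stood at 12.45 at 6 days against 9.92 at 1 day.

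The genes closest to OsTPP1 were ABA8OX1 (0.63), MYB2 (0.74), DREB1G (0.82), hsp17.9 (1.00) and CBF3 (1.02). ABA8OX1, which breaks down abscisic acid, stood at 11.68 in M202(Sub1) at 6 days against 9.83 at 1 day, and at 8.98 in M202 at 6 days against 8.58 at 1 day. DREB1G and CBF3 belong to the cold-responsive DREB1 family, and DREB1G was under the floor on both 1-day arrays. For HXK2/HXK6 the closest were APX6, PDHE1-B, AL1, M-PTH and PRXIIE-1, at distances from 0.04 to 0.08. With only 4 arrays, and all 4 used, such likeness is a description of these arrays.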

How the data were processed

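The deposited values are log2 expression, 1 for each probe set on each array, and the authors made them with RMA, according to the submitters' processing notes. Neither the RMA version nor which arrays it took together is given in the sources used here. RMA brings arrays to a common distribution, which hides any overall shift. Per the labels' protocols, Trizol RNA was labelled with biotin by in vitro transcription for 1-colour Affymetrix arrays. Of 57381 probe sets, 123 are controls and 22436 carry 1 gene symbol. These stand for 17905 genes, all matched to RefSeq by gene number. Another 95 carry several symbols and 34727 are unnamed here.

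Where a gene had more than 1 probe set, the set with the highest mean stood for it. With 1 array per group, differences between arrays are given without a test and counted at 2-fold. Matched genes were always named, with every probe set mapped to that gene alone. Sets with several symbols and unnamed sets were not searched for them. The plan was to name list genes above the floor and 2-fold apart and to count the rest. Many of the rest were named as well. The 5 named genes closest in pattern were given. The members and lists were chosen with earlier results of these data known. Spellings SSII-1 to SSII-3 were added, and homonyms of other families removed, after the annotation was seen. Alternatives changed the probe set rule, normalization, centring, floor and fold. The calculations were tested on simulated data. Python 3.11.15, numpy 2.4.6, pandas 2.3.3 and matplotlib 3.10.9 were used.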

Additional observations from a re-analysis of the deposited data

How the results depend on the processing

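The differences of the matched genes stayed on the same side of 2-fold in all 155 recomputed values over 8 settings. Many of these values could not change. The matched genes other than AMY3D have 1 probe set each, above the floor on every array. For them the probe set rules and floors change nothing, so only normalization and centring were checks. For AMY3D the mean of its sets and the raising of values to the floor were checks as well. AMY3D has no value with the floor at the 75th percentile, which it does not reach. AMY3D ranged from 1.20 to 2.54 with time in M202(Sub1) and from 1.06 to 2.34 in M202, the low ends being the mean of its probe sets. Its small difference between time differences, 0.22, came to -0.16 when values under the floor were raised to it. OsTPP1 ranged from 2.41 to 2.44 between genotypes at 6 days and from 0.90 to 0.96 with time in M202, close to 2-fold. No paired analysis was possible because each group has 1 array. The order of comparisons that follows is time in M202(Sub1), time in M202, genotype at 1 day, genotype at 6 days and the difference between time differences. At 2-fold 1675, 2477, 276, 930 and 894 genes were apart, at 1.5-fold 3800, 5338, 1010, 2547 and 2536, and at 4-fold 423, 517, 47, 132 and 108. A floor at the 75th percentile left 561 for genotype at 6 days and 518 for the difference between time differences. Of the other list genes 3, 1, 0, 1 and 1 were apart at 2-fold, 8, 8, 1, 4 and 4 at 1.5-fold, and 1, 0, 0, 0 and 0 at 4-fold. With time in M202(Sub1) the count was 1 with the mean of all probe sets and 1 without possibly cross-hybridising sets. With time in M202 it was 3 after centring arrays on their medians and 0 with the floor at the 75th percentile. For genotype at 6 days it was 0 with the mean of all probe sets and 0 with that floor. For the difference between time differences it was 0 without possibly cross-hybridising sets. These counts are small, and signal under the floor limits AMY3D at 1 day.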
